A study of Mus musculus with 24 samples.

Results

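The imprinted genes examined here are H19, Meg3, Rian, Mirg, Grb10, Peg3, Ndn, Plagl1 and Mest, a group often described as a network of imprinted genes that is active in quiescent stem cells. They were taken as the rows of the deposited count table that carry these symbols, and all 9 were found among 24091 genes. Of the 9, 4 (Meg3, Rian, Grb10 and Ndn) had enough counts to pass the filter for testing across all genes, and H19, Mirg, Peg3, Plagl1 and Mest did not. An imprinted gene is expressed mainly from the copy inherited from 1 parent, because DNA methylation laid down in the egg or sperm differs between the copies. Many imprinted genes regulate growth, and several of them are expressed in long-term hematopoietic stem cells (LT-HSCs), where the maternally expressed RNAs of the Dlk1-Meg3 domain and the growth-restraining adaptor Grb10 have been linked to stem cell maintenance. The counts do not separate the parental copies, so that a level below is the sum over both.

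Bulk RNA-seq was performed on bone marrow LSKs, which are lineage-negative cells positive for Sca-1 and c-Kit and enriched in stem and multipotent progenitor cells, from C57BL/6 (B6) mice. The 4 groups were normal LSKs with miR-142 (WT, miR-142+/+), normal LSKs lacking it (miR-142 KO, miR-142-/-), leukemic LSKs with it (CP CML, miR-142+/+ BCR-ABL) and leukemic LSKs lacking it (BC CML, miR-142-/- BCR-ABL), each of 6 libraries with 3 females and 3 males. The BCR-ABL oncogene is expressed from a tet-off transgene driven by SCLtTA, under the SCL promoter of blood stem and progenitor cells, and the CML mice were sampled 2 weeks after tetracycline withdrawal. The miR-142-/- genotype is that of the whole mouse and not of LSKs alone. The 2 groups without miR-142 share that deletion and the 2 CML groups share the transgene. The ages of the mice are not given in the sources used here. The labels do not say that each library is a separate mouse, so that p-values measure the spread between these libraries. The study's methods state a smaller n per group for this RNA-seq than the 6 libraries labelled here, and all 6 were used. The question addressed is how loss of miR-142, alone and with BCR-ABL, changes the expression of genes in LSKs.

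Total counts per library ranged from 16267965 to 24687077. The primary transcript of Mir142 was counted 68 to 153 times per library in the 12 libraries with miR-142 and 0 times in each of the 12 libraries without it. The 5 genes of the LSK gate list (Kit, Ly6a, Ly6e, Cd34 and Ptprc) summed to 3145 to 3961 CPM per library, where CPM are counts scaled to a library total of 1000000, and the 7 B cell markers to 24.5 to 46.6 CPM. A count of 0 allows up to 3 counts, which is 0.122 to 0.184 CPM in these libraries. That limit accounts for the error of counting alone.

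Of the 9 members, 4 are long noncoding RNAs (H19, Meg3, Rian and Mirg) and 5 encode proteins. In the mm10 coordinates of the table, Meg3 (chr12:109540996-109571729), Rian (chr12:109603945-109661711) and Mirg (chr12:109729764-109749457) lie one after the other on the plus strand, and Rian starts 62.9 kb and Mirg 189 kb after the start of Meg3. Grb10 is at chr11:11930499-12037420, Ndn at chr7:62348277-62349927, H19 at chr7:142575530-142578146, Peg3 at chr7:6705960-6730419, Plagl1 at chr10:13060504-13131695 and Mest at chr6:30733506-30748466. Peg3 overlaps the antisense gene Peg3os and Mest overlaps Copg2 on the other strand, and the strand setting of the counting is not given in the sources used here, so that reads from each pair cannot be told apart. Within Rian and Mirg lie the table's own rows for small RNAs, and how reads over both rows were assigned is not given either.

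The noncoding members are hosts of microRNAs, and the deleted gene is itself a microRNA gene, so the mature sequences are shown to let the seeds (bases 2 to 8, in capitals) be compared. They are from RefSeq (GRCm38.p6), and the seeds of both miR-142 strands differ from those of all 38 mature microRNAs annotated within the members on the same strand. Among these 38, 1 pair within Mirg (miR-453 and miR-496a-5p) shared a seed. The 2 strands of Mir142 on chromosome 11 were absent from the miR-142 KO and BC CML groups by design:
miR-142a-5p: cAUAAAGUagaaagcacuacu
miR-142a-3p: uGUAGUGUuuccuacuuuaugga
One microRNA gene each lies within H19 (Mir675), Meg3 (Mir770) and Mest (Mir335), 3 lie within Rian (among them Mir341 and Mir370) and 14 within Mirg:
miR-675-5p: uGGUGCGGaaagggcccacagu
miR-770-5p: aGCACCACgugucugggccacg
miR-341-5p: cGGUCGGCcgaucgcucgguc
miR-370-3p: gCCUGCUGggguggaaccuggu
miR-335-5p: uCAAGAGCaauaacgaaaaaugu
The libraries were made from longer RNA and did not measure these small RNAs: over all 24 libraries, the rows for the hosted microRNA genes held 0 counts in H19, 0 in Meg3, 1 in Rian, 2 in Mirg and 1 in Mest.

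The 7-base complement of the miR-142a-3p seed (ACACTAC) was found 1 time in the longest GENCODE M21 transcript of H19, 1 time in Rian, 2 times in Mirg and 1 time in Plagl1, and that of the miR-142a-5p seed (ACTTTAT) 1 time in Mest. Neither was found in the longest transcript of Meg3, Grb10, Ndn or Peg3. Among genes whose longest transcript is within 20% of the same length, ACACTAC was present in 9.19% of 7086 for H19, 27.7% of 1578 for Rian, 13.5% of 6624 for Mirg and 17.9% of 4223 for Plagl1, and ACTTTAT in 18% of 7390 for Mest. These matches describe letters in a transcript and were not tested as binding sites.

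The 250 bases before the start of the 4 tested members are shown with CpG dinucleotides, which can carry DNA methylation, in capitals. These promoter windows were not chosen as the regions that control imprinting, and methylation was not measured. RefSeq promoters (GRCm38.p6) were matched for 8 of the 9 members, and the start used in the count table was among them for 6. Sequences run 5′ to 3′ on the gene's strand, at chr12:109540746-109540995 for Meg3, chr12:109603695-109603944 for Rian, chr7:62348027-62348276 for Ndn and, on the minus strand, chr11:12037421-12037670 for Grb10:
Meg3: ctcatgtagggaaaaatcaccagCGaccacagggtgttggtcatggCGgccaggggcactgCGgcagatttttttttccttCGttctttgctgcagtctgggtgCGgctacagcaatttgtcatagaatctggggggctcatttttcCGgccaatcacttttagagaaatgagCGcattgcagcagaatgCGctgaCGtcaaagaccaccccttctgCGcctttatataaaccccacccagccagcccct
Rian: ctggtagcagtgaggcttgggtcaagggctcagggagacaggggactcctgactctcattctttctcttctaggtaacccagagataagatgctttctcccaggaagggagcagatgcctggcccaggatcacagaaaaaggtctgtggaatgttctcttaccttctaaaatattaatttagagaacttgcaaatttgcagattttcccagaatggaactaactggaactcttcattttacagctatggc
Ndn: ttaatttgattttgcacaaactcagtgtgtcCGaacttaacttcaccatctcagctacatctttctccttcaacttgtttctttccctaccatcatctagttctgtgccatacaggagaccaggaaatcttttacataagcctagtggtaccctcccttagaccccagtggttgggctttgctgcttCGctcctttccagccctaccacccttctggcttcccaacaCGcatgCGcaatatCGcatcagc
Grb10: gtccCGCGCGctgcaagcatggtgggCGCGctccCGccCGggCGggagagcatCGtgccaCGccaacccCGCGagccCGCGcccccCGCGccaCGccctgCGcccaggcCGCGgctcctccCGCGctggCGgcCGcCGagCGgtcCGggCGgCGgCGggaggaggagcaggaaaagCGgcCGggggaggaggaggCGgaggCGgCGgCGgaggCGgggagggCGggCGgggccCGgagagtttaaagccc
The Grb10 window held 40 CpGs, a number reached by 1.31% of 32851 RefSeq promoters, against a median of 6. Meg3 held 10, Ndn 5 and Rian 0. Grb10 and Meg3 each have another RefSeq start that is not the one in the count table. The windows there (chr11:12027972-12028221 and chr12:109545148-109545397) held 8 and 0 CpGs. The core of the motif bound by the imprint-protecting protein ZFP57 (TGCCGC, searched on both strands as TGCCGC and GCGGCA) occurred 1 time in the Meg3 window, starting 190 bases before the gene, and in none of the windows of Rian, Ndn and Grb10. It was present in 8.68% of all promoter windows of this length.

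Per kb of gene length and averaged over the 24 libraries, Grb10 was the member with the highest level, at 6.06 CPM per kb, followed by Ndn at 1.07, Meg3 at 0.340, Rian at 0.267, H19 at 0.109, Mest at 0.0605, Plagl1 at 0.0334, Peg3 at 0.0295 and Mirg at 0.00733. In WT LSKs, Meg3 (0.426 ± 0.158 CPM per kb, SD, n = 6) and Rian (0.359 ± 0.129) lay within each other's spread, whereas Grb10 (9.08 ± 2.13) and Ndn (2.51 ± 1.10) were apart from them and from each other. The members under the filter were thus read from few counts per library.

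**Figure D1:**
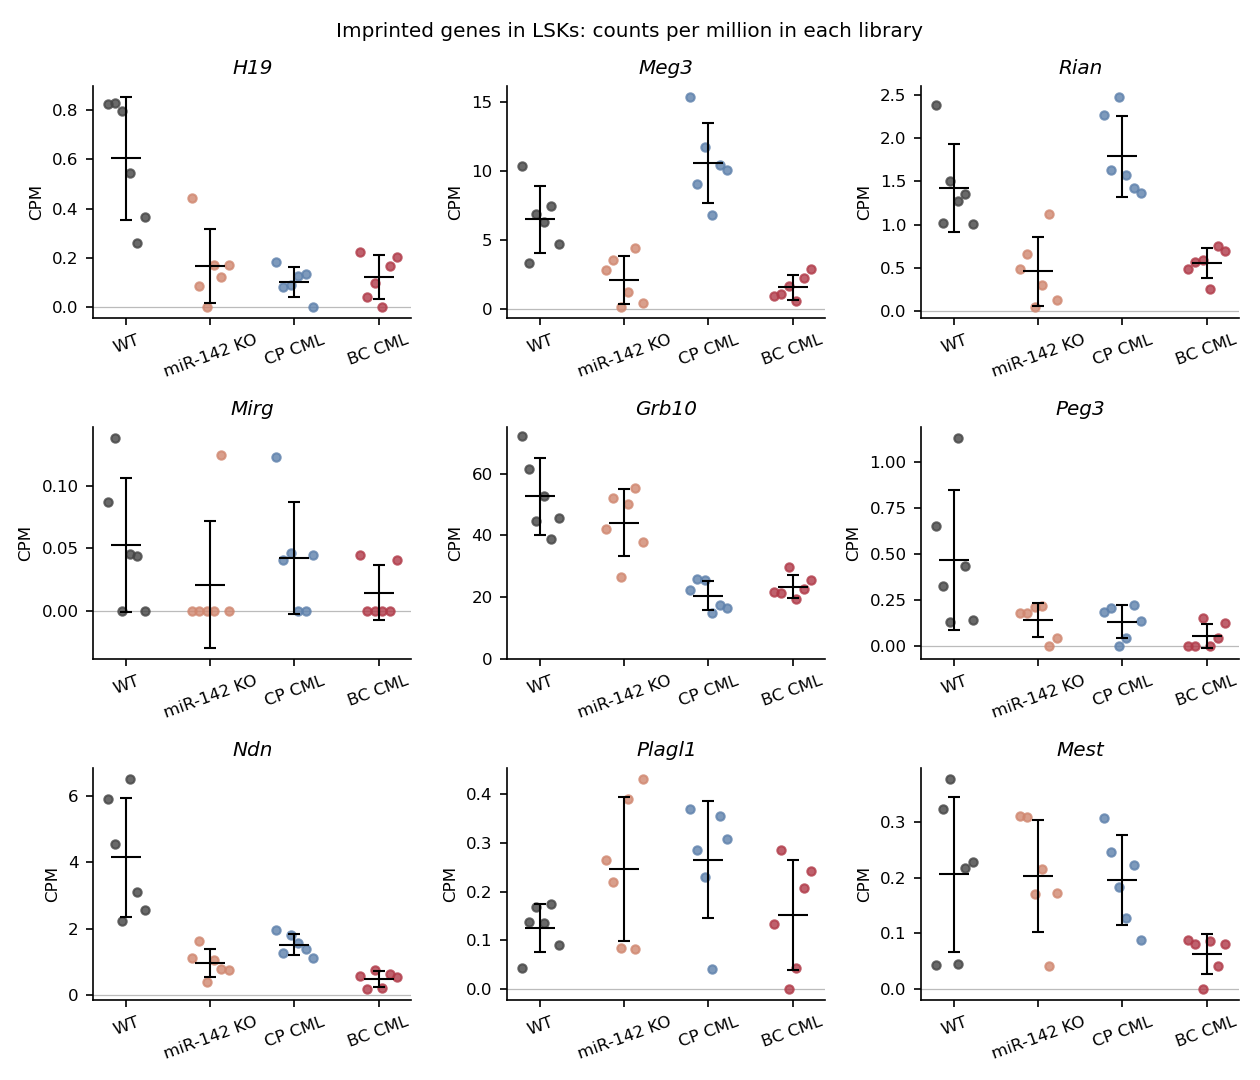
CPM (y axis, linear, scale differs between panels) of each imprinted member in each of the 24 libraries (points), with the mean and SD of each group of 6 (bars). Meg3 and Rian stand high in WT and CP CML LSKs and low in both groups without miR-142, and Ndn is highest in WT and lowest in BC CML LSKs. Grb10 divides by BCR-ABL in its group means, at 20.4 and 23.4 CPM in the CML groups against 52.6 and 44.0 CPM without BCR-ABL. Its miR-142 KO and BC CML libraries overlap.

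Meg3, a maternally expressed noncoding RNA that opens the transcribed noncoding stretch of its domain, had 72 to 238 counts (median 150.5) in WT and 159 to 254 (median 230.5) in CP CML LSKs. In the groups without miR-142 it had 3 to 107 (median 46) in miR-142 KO and 13 to 71 (median 30) in BC CML LSKs. The CP CML libraries were all above the BC CML libraries, while the highest miR-142 KO libraries overlapped the lowest WT library. On the CPM scale the means were 6.49 ± 2.41 (SD, n = 6) in WT and 10.5 ± 2.88 in CP CML LSKs. Without miR-142 the means were 2.10 ± 1.77 in miR-142 KO and 1.56 ± 0.878 in BC CML LSKs. Meg3 fell by 2.68 on the log2 scale in BC CML versus CP CML LSKs (SE 0.49, edgeR adjusted p = 0.000170). It fell by 1.56 in miR-142 KO versus WT LSKs (SE 0.48, edgeR adjusted p = 0.0126), a call that was lost when only these 12 libraries were fitted (edgeR adjusted p = 0.0586).

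Rian, the next noncoding RNA of the same domain and host of small nucleolar RNAs, had 22 to 55 counts (median 29.5) in WT and 31 to 54 (median 37) in CP CML LSKs. The miR-142 KO libraries held 1 to 27 (median 9) and the BC CML libraries 6 to 18 (median 13). As with Meg3, CP CML and BC CML libraries did not overlap, and the 2 libraries with the lowest counts were both miR-142 KO. Rian fell by 1.60 on the log2 scale in BC CML versus CP CML LSKs (SE 0.39, edgeR adjusted p = 0.00238). In miR-142 KO versus WT LSKs it fell by 1.56 (SE 0.40, edgeR adjusted p = 0.00373).

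The miR-142 KO libraries with 3 and 10 counts of Meg3 held 1 and 3 counts of Rian. Without both, Meg3 differed by -1.04 (edgeR adjusted p = 0.0406) and Rian by -1.07 (edgeR adjusted p = 0.0169) on the log2 scale in miR-142 KO versus WT LSKs, so that both calls held at a smaller size. Mirg, the microRNA host at the end of the stretch, had at most 3 counts in any library and 0 in 13 of the 24, so that no difference was detectable at this depth.

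Ndn encodes necdin, a paternally expressed protein that restrains cell cycle entry of hematopoietic stem cells. It had 53 to 144 counts (median 85) in WT and 25 to 39 (median 31.5) in CP CML LSKs. In the groups without miR-142 it had 9 to 37 (median 21.5) in miR-142 KO and 4 to 15 (median 13) in BC CML LSKs. The WT libraries were above every library of the other groups, and the CP CML libraries were above every BC CML library. Ndn fell by 2.06 on the log2 scale in miR-142 KO versus WT (SE 0.32, edgeR adjusted p = 2.77e-05), by 1.60 in BC CML versus CP CML (SE 0.35, edgeR adjusted p = 0.00100) and by 1.40 in CP CML versus WT LSKs (SE 0.31, edgeR adjusted p = 0.00102). In BC CML versus miR-142 KO LSKs it fell by 0.94 (SE 0.36, edgeR adjusted p = 0.0407), where the groups overlapped and where the adjusted p was 0.0696 with only these 12 libraries and up to 0.121 when 1 library was left out. That call was lost without miR-142 KO replicate 1, 2 or 4, or BC CML replicate 2 or 4.

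Grb10, which encodes an adaptor that binds the insulin and IGF1 receptors and dampens their signal, had 894 to 1662 counts (median 1113.5) in WT and 349 to 635 (median 383.5) in CP CML LSKs. Without miR-142 there were 622 to 1338 (median 1056.5) in miR-142 KO and 451 to 630 (median 533.5) in BC CML LSKs. It divided by BCR-ABL without overlap only in the groups with miR-142, where all CP CML libraries were below all WT libraries. In the groups without miR-142, the lowest miR-142 KO library (26.4 CPM) was below the highest BC CML library (29.6 CPM). WT overlapped miR-142 KO and CP CML overlapped BC CML. Grb10 fell by 1.31 on the log2 scale in CP CML versus WT (SE 0.17, edgeR adjusted p = 4.04e-06) and by 0.86 in BC CML versus miR-142 KO LSKs (SE 0.17, edgeR adjusted p = 0.000499). In miR-142 KO versus WT the difference was -0.19 (95% interval -0.52 to 0.14, edgeR adjusted p = 0.391) and in BC CML versus CP CML 0.26 (95% interval -0.08 to 0.59, edgeR adjusted p = 0.250). Grb10 was thus the tested member that passed the threshold in neither comparison of miR-142 loss.

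**Figure D2:**
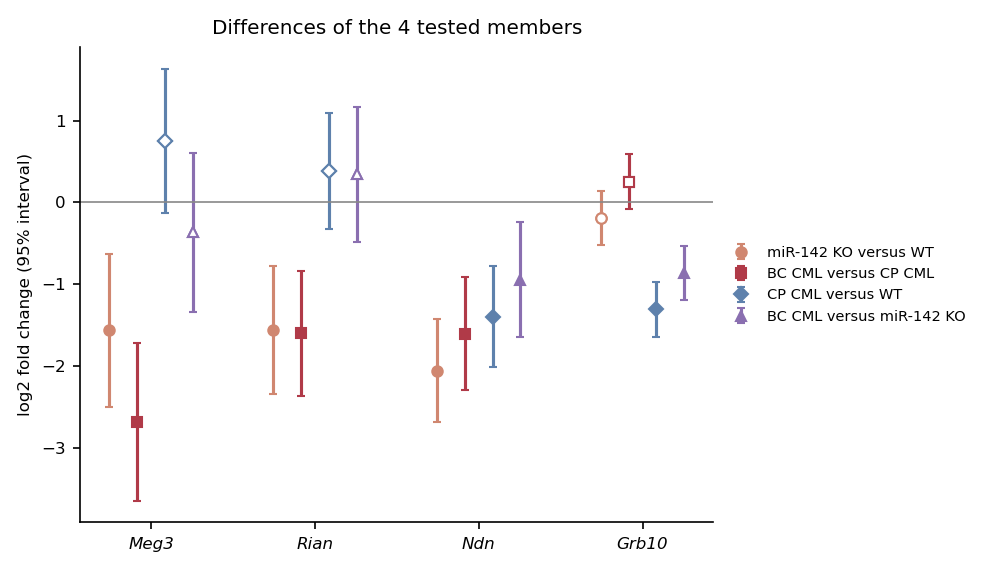
Fitted log2 fold changes of the 4 tested members (y axis) with 95% intervals in 4 comparisons, the first group over the second; filled points passed the adjusted p threshold of 0.05 and open points did not. Meg3 and Rian are filled for both comparisons of miR-142 loss, Grb10 for both comparisons of BCR-ABL, and Ndn for all 4.

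In BC CML versus CP CML LSKs, 3 of the 4 tested members fell (Meg3, Rian and Ndn) and 0 rose, where 17.6% of the 13520 genes tested fell and 20.4% rose. The same 3 were lower without overlap between the groups, as were 12.6% of the genes tested. In miR-142 KO versus WT LSKs, Meg3, Rian and Ndn again fell and 0 of 4 rose, against 16.4% of genes lower and 19.9% higher, and 1 member (Ndn) was lower without overlap, against 8.73%. In CP CML versus WT LSKs, 2 of 4 (Grb10 and Ndn) fell and both were lower without overlap, whereas 22.9% of genes fell, 22.5% rose and 12.8% were lower without overlap. In BC CML versus miR-142 KO LSKs the same pair fell, and 0 of 4 were lower without overlap, against 19.3% of genes lower, 20.3% higher and 5.65% lower without overlap. The median log2 difference of the 4 members was -1.60 in BC CML versus CP CML and -1.56 in miR-142 KO versus WT, beside medians of 0.014 and 0.0054 over all tested genes. Each CML or KO group enters 2 of these comparisons, so that the counts are not independent.

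In CP CML versus WT LSKs, Meg3 differed by 0.75 on the log2 scale (95% interval -0.13 to 1.64, edgeR adjusted p = 0.177) and Rian by 0.38 (95% interval -0.33 to 1.10, edgeR adjusted p = 0.405). For Meg3 this depended on how the spread was estimated: with only these 12 libraries the edgeR adjusted p was 0.0200, and an exact two-sided permutation test of log2 CPM over the 924 splits of 6 against 6 gave p = 0.0173. In BC CML versus miR-142 KO LSKs, Meg3 differed by -0.37 (95% interval -1.34 to 0.61, edgeR adjusted p = 0.583) and Rian by 0.34 (95% interval -0.49 to 1.17, edgeR adjusted p = 0.546).

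The difference between the 2 effects of miR-142 loss, with BCR-ABL minus without it, passed the threshold for 0 of the 4 tested members, where 3.99% of all genes passed. It was -1.12 for Meg3 (95% interval -2.43 to 0.19, edgeR adjusted p = 0.378), -0.040 for Rian (95% interval -1.21 to 1.13), 0.45 for Ndn (95% interval -0.49 to 1.40) and 0.44 for Grb10 (95% interval -0.02 to 0.91), on the log2 scale. The unadjusted edgeR p was 0.108 for Meg3 and 0.0757 for Grb10, and above these for Ndn and Rian, so that 0 of 4 was also the count at an unadjusted p under 0.05. Between females and males 0 of the 4 passed, where 0.651% of genes did, and their log2 differences, female over male, lay between 0.053 (Meg3) and 0.21 (Grb10).

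H19, a maternally expressed noncoding RNA described in the quiescence of LT-HSCs, had 6 to 19 counts (median 15) in WT and 0 to 3 (median 2.5) in CP CML LSKs. The miR-142 KO libraries held 0 to 10 (median 3.5) and the BC CML libraries 0 to 5 (median 3). The WT libraries stood above all CP CML and all BC CML libraries. In an exact two-sided permutation test of log2 CPM, which cannot give a p below 0.00216 with 6 libraries against 6, H19 was lower than in WT LSKs both in CP CML (p = 0.00216) and in miR-142 KO (p = 0.00649). An edgeR fit of all genes with a count, without the filter on low counts, gave an adjusted p of 0.00217 with a log2 difference of -2.48 (SE 0.59) for CP CML and 0.0180 with -1.77 (SE 0.55) for miR-142 KO versus WT. In that fit of 19124 genes, 15.9% of genes fell in CP CML and 11.6% in miR-142 KO versus WT LSKs. The 3 groups other than WT summed to 13 to 23 counts of H19 over 6 libraries each, and BC CML differed from CP CML by 0.11 on the log2 CPM scale (exact permutation p = 0.764).

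Peg3, which encodes a paternally expressed zinc-finger protein of stem cells in several tissues, had 3 to 25 counts (median 8.5) in WT and 0 to 5 (median 3) in CP CML LSKs. In the groups without miR-142 it had 0 to 5 (median 4) in miR-142 KO and 0 to 3 (median 0.5) in BC CML LSKs. It was lower than in WT LSKs both in miR-142 KO (exact permutation p = 0.0498) and in CP CML (exact permutation p = 0.0433), with overlap in both cases. In BC CML LSKs the exact permutation p was 0.132 against CP CML (0.0433 without CP CML replicate 3) and 0.11 against miR-142 KO (0.0346 without miR-142 KO replicate 5). Each of the 2 differences from WT lost an exact permutation p under 0.05 in 8 of the 12 tests that left out 1 library, where p reached 0.106 and 0.0909. Without the filter, the edgeR adjusted p was 0.0653 for miR-142 KO and 0.0467 for CP CML versus WT.

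Mest, which encodes a hydrolase-like protein expressed from the paternal copy, had 1 to 9 counts in WT and 2 to 6 in CP CML LSKs. Without miR-142 there were 1 to 7 in miR-142 KO and 0 to 2 in BC CML LSKs. BC CML was the group with the lowest counts: 25 counts over the 6 CP CML libraries and 28 over the 6 miR-142 KO libraries compared with 9 over the 6 BC CML libraries. The difference had an exact permutation p of 0.00649 against CP CML and 0.0130 against miR-142 KO LSKs, and without the filter the edgeR adjusted p was 0.0625 and 0.0438, where 13.7% of the genes in that fit fell in BC CML versus miR-142 KO LSKs. Plagl1, a zinc-finger transcription factor expressed from the paternal copy, had 0 to 10 counts per library over all 24. Its medians were 3 in WT and 6.5 in CP CML LSKs, against 5.5 in miR-142 KO and 4 in BC CML LSKs, and the smallest exact permutation p over the 4 pairs of groups was 0.0563, in CP CML versus WT LSKs. This rested on 1 library: without CP CML replicate 4 the exact permutation p was 0.00216 in CP CML versus WT and 0.0455 in BC CML versus CP CML LSKs. In miR-142 KO versus WT LSKs the exact permutation p of Plagl1 was 0.106, and as low as 0.0390 without miR-142 KO replicate 5 and also under 0.05 without replicate 3. In all, 20 exact tests were run on the 5 members under the filter, and their p-values are not adjusted.

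The Dlk1-Meg3 domain holds a paternally expressed protein-coding side (Dlk1, Rtl1 and Dio3) and the maternally expressed noncoding side with Meg3, Rian and Mirg, and Begain lies at its outer border. Dlk1, a membrane ligand related to those of Notch, had 12 to 29 counts in WT and 24 to 68 in CP CML LSKs. The miR-142 KO libraries held 3 to 24 and the BC CML libraries 8 to 21, so that CP CML libraries were above all BC CML libraries. Of the 7 genes on the list, Meg3, Rian and Mirg included, 4 passed the filter, and in BC CML versus CP CML LSKs all 4 of these fell: Meg3, Dlk1 (-1.57, SE 0.35, edgeR adjusted p = 0.0012), Rian and Begain (-1.04, SE 0.27, edgeR adjusted p = 0.0036), on the log2 scale. In miR-142 KO versus WT LSKs 3 of 4 fell, with Begain at -0.68 (SE 0.25, edgeR adjusted p = 0.039). In CP CML versus WT LSKs 1 of 4 rose, which was Dlk1 (0.92, SE 0.34, edgeR adjusted p = 0.030). In BC CML versus miR-142 KO LSKs Begain alone of the 4 passed, at -0.78 (SE 0.27, edgeR adjusted p = 0.024). Of all tested genes, 17.6% fell in BC CML versus CP CML, 16.4% in miR-142 KO versus WT and 19.3% in BC CML versus miR-142 KO LSKs. In CP CML versus WT LSKs 22.5% rose. Meg3 and Rian, counted here, are the members already called above. Rtl1 had 0 counts in all WT and miR-142 KO libraries and at most 2 in any CML library, and Dio3 had at most 1 count in any library.

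**Figure D3:**
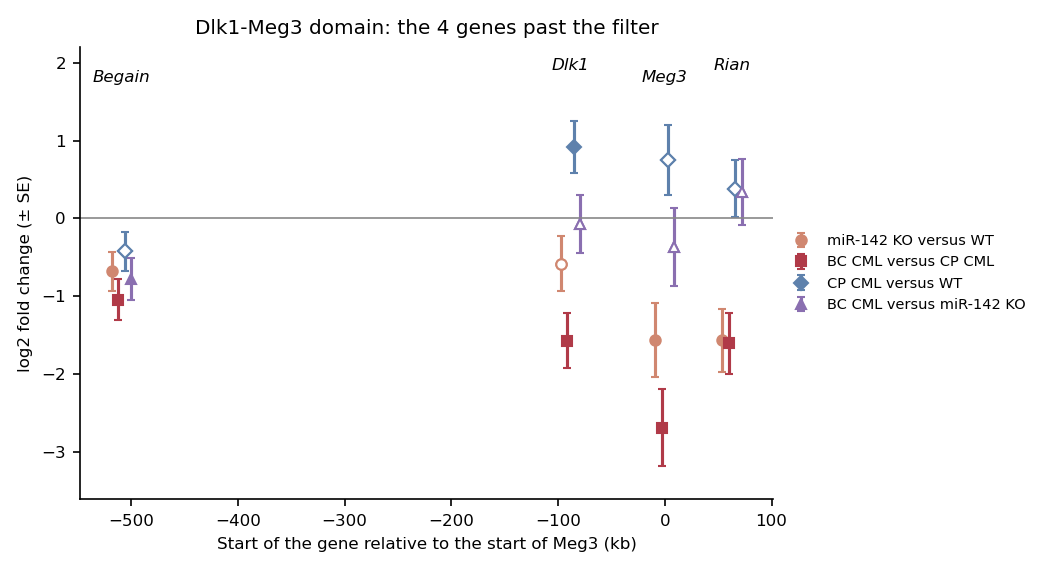
Fitted log2 fold change ± SE (y axis) of the 4 genes of the Dlk1-Meg3 domain that passed the filter, by the distance of the gene's start from that of Meg3 in kb (x axis, points of 1 gene shifted slightly apart); filled points passed an adjusted p of 0.05. All 4 genes are lower in BC CML versus CP CML LSKs, from -1.04 for Begain to -2.68 for Meg3.

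At the neighbours of Ndn on chromosome 7, Peg12 fell by 0.83 on the log2 scale in BC CML versus CP CML LSKs (SE 0.16, edgeR adjusted p = 0.00035) and by 0.85 in BC CML versus miR-142 KO LSKs (SE 0.16, edgeR adjusted p = 0.00038). Of 8 genes on that list, Ndn included, 5 passed the filter, and 3 of the 5 fell in BC CML versus CP CML, 1 in miR-142 KO versus WT, 2 in CP CML versus WT and 4 in BC CML versus miR-142 KO LSKs. Of all tested genes, 17.6%, 16.4%, 22.9% and 19.3% fell in these comparisons, in the same order. Snrpn was listed at 0 counts in every library, and Magel2, a MAGE family relative of Ndn, at 0 in every WT, CP CML and BC CML library. Snurf, on the same list, had at most 1 count in any library. How reads over more than 1 row were assigned is not given, so that a row at 0 does not show a silent gene. Next to Grb10 on chromosome 11, Cobl, an actin nucleator, had 1 to 6 counts in WT and 0 to 5 in miR-142 KO compared with 83 to 504 in CP CML LSKs and, in BC CML LSKs, 434 to 1307. Ddc, the aromatic amino acid decarboxylase, had 0 to 9 in WT and 0 to 8 in miR-142 KO, compared with 19 to 58 in CP CML LSKs and, in BC CML LSKs, 34 to 87. Both neighbours were thus high in the CML groups, in which Grb10 was low. In CP CML versus WT LSKs Cobl rose by 6.27 on the log2 scale (SE 0.51, edgeR adjusted p = 4.7e-09) and Ddc by 3.13 (SE 0.48, edgeR adjusted p = 2.7e-05). In the domain of H19, the growth factor gene Igf2 had 10 to 39 counts in miR-142 KO and 4 to 10 in BC CML LSKs. On the CPM scale these groups overlapped, with 0.415 CPM the lowest in miR-142 KO and 0.495 the highest in BC CML LSKs. Igf2 fell by 1.02 on the log2 scale in BC CML versus miR-142 KO LSKs (SE 0.38, edgeR adjusted p = 0.036). Usp29 and Zim1, neighbours of Peg3, were listed at 0 in all groups, as were Ins2 and Th beside H19. Of the 2 tested genes beside Mest, Cep41 fell by 0.38 in miR-142 KO versus WT (edgeR adjusted p = 0.00022) and by 0.25 in BC CML versus CP CML LSKs (edgeR adjusted p = 0.0085). Cep41 also fell by 0.53 in CP CML versus WT (edgeR adjusted p = 6.0e-06) and by 0.40 in BC CML versus miR-142 KO LSKs (edgeR adjusted p = 0.00023). Copg2 rose by 0.15 in miR-142 KO versus WT LSKs (edgeR adjusted p = 0.015).

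Imprinted genes beyond the members were called in both directions, at shares to be read against the 16.4% to 22.9% of all tested genes called per direction in these comparisons. Of 15 other genes of the imprinted network, 10 were tested, of which 2 rose and 3 fell in miR-142 KO versus WT and 2 rose and 4 fell in BC CML versus CP CML LSKs. Of the same 10, 2 rose and 4 fell in CP CML versus WT and 1 rose and 4 fell in BC CML versus miR-142 KO LSKs. Igf2r, the receptor that clears IGF2, had 923 to 2172 counts in WT and 345 to 513 in CP CML LSKs. In the groups without miR-142 it had 237 to 857 in miR-142 KO and 215 to 452 in BC CML LSKs, so that WT libraries were above all others. It fell by 2.05 in miR-142 KO versus WT (SE 0.26, edgeR adjusted p = 2.3e-06) and by 1.97 in CP CML versus WT LSKs (SE 0.26, edgeR adjusted p = 4.9e-06). The effect of miR-142 loss on Igf2r differed between the backgrounds by 1.67 on the log2 scale (SE 0.37, edgeR adjusted p = 0.012). Of 49 further imprinted genes, 48 were in the table and 33 were tested, of which 4 rose and 7 fell in miR-142 KO versus WT and 4 rose and 8 fell in BC CML versus CP CML LSKs. Of the same 33, 5 rose and 10 fell in CP CML versus WT, and 7 rose and 10 fell in BC CML versus miR-142 KO LSKs. Their median log2 difference was -0.13, -0.038, -0.10 and -0.049 in these comparisons. The serotonin receptor gene Htr2a fell by 2.13 in BC CML versus CP CML (SE 0.23, edgeR adjusted p = 1.7e-07) and had a log2 difference of -1.20 in miR-142 KO versus WT LSKs (SE 0.22, edgeR adjusted p = 0.00013). Ppp1r9a, an actin-binding regulator of protein phosphatase 1, fell by 0.91 (SE 0.12, edgeR adjusted p = 2.1e-06) and by 1.0 (SE 0.12, edgeR adjusted p = 4.6e-07) in the same comparisons. Both also fell in BC CML versus miR-142 KO LSKs (Htr2a by 0.92 and Ppp1r9a by 0.50), and Ppp1r9a fell by 0.59 in CP CML versus WT LSKs.

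Of 14 genes that establish, keep or erase imprints, 13 were tested, and 0 rose and 3 fell in BC CML versus CP CML (20.4% and 17.6% of all genes), while 1 rose and 4 fell in miR-142 KO versus WT (19.9% and 16.4%). Further, 2 rose and 4 fell in CP CML versus WT (22.5% and 22.9%) and 1 rose and 4 fell in BC CML versus miR-142 KO LSKs (20.3% and 19.3%). Zfp57, the zinc-finger protein that protects imprinted methylation in the early embryo, had 134 to 293 counts in WT and 116 to 229 in CP CML LSKs. Without miR-142 there were 43 to 92 in miR-142 KO and 24 to 77 in BC CML LSKs. The groups without miR-142 were below those with it without overlap in either background. Zfp57 fell by 1.69 in miR-142 KO versus WT (SE 0.25, edgeR adjusted p = 1.2e-05) and by 2.13 in BC CML versus CP CML LSKs (SE 0.26, edgeR adjusted p = 8.9e-07), on the log2 scale, and also by 0.67 in BC CML versus miR-142 KO LSKs (SE 0.26, edgeR adjusted p = 0.041). Tet1, an enzyme that oxidizes 5-methylcytosine, fell by 0.79 (SE 0.11, edgeR adjusted p = 6.3e-06) and 0.82 (SE 0.11, edgeR adjusted p = 4.4e-06) in the same comparisons. It also fell with BCR-ABL, by 0.57 in CP CML versus WT (SE 0.11, edgeR adjusted p = 0.00025) and by 0.60 in BC CML versus miR-142 KO LSKs (SE 0.11, edgeR adjusted p = 0.00027). Dnmt3l, a cofactor of de novo methylation, rose by 2.19 in CP CML versus WT (SE 0.38, edgeR adjusted p = 8.0e-05) and by 1.98 in BC CML versus miR-142 KO LSKs (SE 0.34, edgeR adjusted p = 0.00014).

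Because Grb10 acts on insulin and IGF receptors, 14 genes of that pathway were followed, of which 12 were tested, Grb10 and Igf2r among them. Of the 12, 4 rose and 3 fell in CP CML versus WT LSKs (22.5% and 22.9% of all genes), and in BC CML versus CP CML LSKs 1 and 3 did (20.4% and 17.6%). In miR-142 KO versus WT LSKs it was 2 and 3 (19.9% and 16.4%), and in BC CML versus miR-142 KO LSKs 3 and 4 (20.3% and 19.3%). Igf2bp3, an RNA-binding protein of fetal tissues that binds Igf2 mRNA, had 8 to 18 counts in WT and 27 to 54 in CP CML LSKs. The miR-142 KO libraries held 151 to 556 and the BC CML libraries 372 to 926, and no groups overlapped between the presence and absence of miR-142. It rose by 4.33 on the log2 scale in miR-142 KO versus WT (SE 0.34, edgeR adjusted p = 1.8e-09) and by 3.94 in BC CML versus CP CML LSKs (SE 0.31, edgeR adjusted p = 1.6e-09), and also by 1.51 in CP CML versus WT and 1.11 in BC CML versus miR-142 KO LSKs. Irs2, the adaptor that passes on the receptors' signal, fell by 0.94 in BC CML versus CP CML LSKs (SE 0.12, edgeR adjusted p = 1.9e-06) and rose by 0.73 in CP CML versus WT LSKs (SE 0.12, edgeR adjusted p = 4.7e-05). Igf1r fell by 0.28 (SE 0.07, edgeR adjusted p = 0.0028) in BC CML versus CP CML LSKs and by 0.40 (SE 0.07, edgeR adjusted p = 0.00017) in BC CML versus miR-142 KO LSKs.

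**Figure D4:**
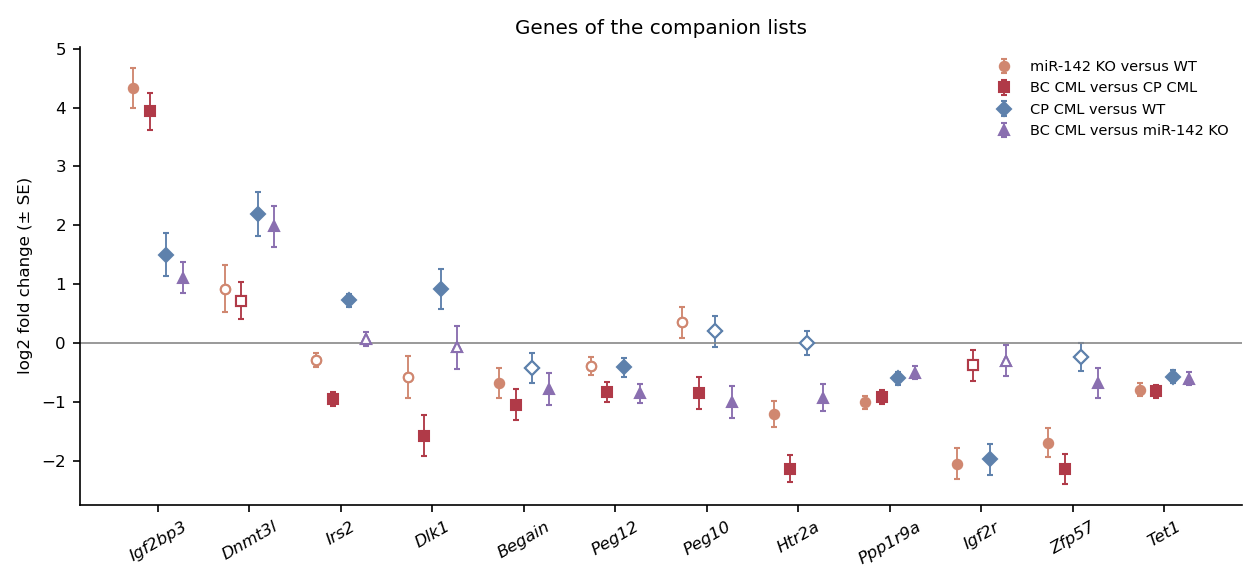
Fitted log2 fold change ± SE (y axis) of 12 genes of the imprinted, domain, imprint maintenance and insulin and IGF lists in the 4 comparisons; filled points passed an adjusted p of 0.05 and open points did not. Igf2bp3 is highest in both comparisons of miR-142 loss (4.33 and 3.94), where Zfp57 is low (-1.69 and -2.13), and Igf2r is low in miR-142 KO and CP CML versus WT.

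Most markers of the most immature LSKs fell in the 4 comparisons in which Ndn fell. Meg3 and Rian were not called in CP CML versus WT, and Grb10 in neither comparison of miR-142 loss. The 16 genes of the LT-HSC list were all tested. Of these, 11 fell and 1 rose both in miR-142 KO versus WT and in BC CML versus CP CML LSKs. Procr was at -1.79 in the former and Sult1a1 at -2.50 in the latter on the log2 scale. Hoxb5, on the same list, went the other way by group mean. Its mean was 3.47 CPM in miR-142 KO against 1.44 in WT LSKs, and 2.52 in BC CML against 0.953 in CP CML LSKs. In CP CML versus WT LSKs 11 fell and 2 rose, and in BC CML versus miR-142 KO LSKs 10 fell and 1 rose. Of all tested genes, 16.4% to 22.9% were called per direction in these 4 comparisons. Their summed level was 1096 to 1841 CPM in WT and 981 to 1161 in CP CML LSKs, against 787 to 938 in miR-142 KO and 684 to 809 in BC CML LSKs. Much of the gap between CP CML and miR-142 KO LSKs was Ifitm1, at means of 281 and 98.9 CPM. Its means were 120 CPM in WT and 233 in BC CML LSKs. The sum without Ifitm1 was not computed. By group mean Ndn stood in the order of the whole sum, Ifitm1 included: highest in WT, then CP CML, miR-142 KO and BC CML LSKs. In bulk samples a smaller share of a cell type and less RNA per cell cannot be told apart. The 8 neutrophil-primed progenitor genes summed to 1369 to 5079 CPM in WT and 4634 to 7776 in CP CML LSKs. They summed to 2742 to 7725 in miR-142 KO and 5877 to 8327 in BC CML LSKs. The WT library with 5079 CPM was replicate 3, and the WT median was 2309 CPM. All 8 rose in miR-142 KO versus WT LSKs, where 19.9% of all tested genes rose. The 7 mast cell or basophil genes summed to 278 to 812 CPM in WT and 1673 to 3153 in CP CML LSKs, and to 435 to 2977 in miR-142 KO and 4572 to 9357 in BC CML LSKs. The part of these cell types in the levels of the imprinted genes was not tested.

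Because Meg3, Dlk1 and H19 are abundant in mesenchymal cells, the 14 stromal markers were read beside them. They summed to 84.3 to 153 CPM in WT and 165 to 218 in CP CML LSKs, against 80.1 to 114 in miR-142 KO and 57.0 to 100 in BC CML LSKs. The sum was highest in CP CML LSKs through Pdgfrb, while other stromal genes were lower there. Of the 5 tested, 1 rose (Pdgfrb) in CP CML versus WT LSKs and 2 fell (Cxcl12 by 1.82 and Col1a1 by 2.76 on the log2 scale). Of all tested genes, 22.5% rose and 22.9% fell in that comparison. Most of this sum was Pdgfrb, at 91.7 ± 19.2 CPM (SD, n = 6) in WT and 172 ± 15.3 in CP CML LSKs, against 82.7 ± 18.4 in miR-142 KO and 68.5 ± 11.8 in BC CML LSKs. Of the 14 genes, 5 passed the filter, and 1 of these (Pdgfrb) fell in BC CML versus CP CML LSKs, as did 17.6% of all tested genes. Lum and Grem1 were at 0 in all CP CML libraries, and Grem1 also in all BC CML libraries. The 8 monocyte or macrophage markers summed to 105 to 1134 CPM in WT and 167 to 579 in CP CML LSKs, against 70.5 to 264 in miR-142 KO and 160 to 335 in BC CML LSKs. The library with 1134 CPM was WT replicate 3, and the WT median was 153 CPM. The library with 70.5 CPM was miR-142 KO replicate 3, the one with 3 counts of Meg3. Their part in the results was not tested.

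Within groups, the tested members varied together to different degrees. This is described by Pearson's r of log2 CPM over the 24 libraries after each group's mean was subtracted. These libraries share 4 groups, and their depth and cell makeup affect all genes at once. Meg3 and Rian had r = 0.94, Grb10 and Rian 0.67, Grb10 and Ndn 0.61, Meg3 and Ndn 0.54 and Meg3 and Dlk1 0.50. The members under the filter, read from few counts, did not all follow. Mest had r = -0.14 with Meg3, -0.21 with Rian, -0.24 with Ndn and -0.17 with Grb10. Peg3 had r = 0.08 with Meg3, -0.09 with Rian and 0.45 with Ndn, and H19 had 0.59 with Ndn. With the mean of the LT-HSC list, r was 0.73 for Ndn, 0.69 for Meg3, 0.57 for Rian and 0.55 for Grb10, and with that of 16 cell cycle genes it was -0.59 for Ndn and -0.51 for Meg3. With the stromal list it was 0.09 for Meg3, -0.06 for Rian and 0.13 for Ndn. With the monocyte or macrophage list r was 0.55 for Meg3, 0.46 for Rian and 0.27 for Ndn. Replicate 3 of miR-142 KO was lowest of its group in Meg3 (-2.18 log2 CPM). It was also lowest there in the means of the LT-HSC list (3.82) and the monocyte or macrophage list (0.539). The r values may thus lean on this library, and r without it was not computed.

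**Figure D5:**
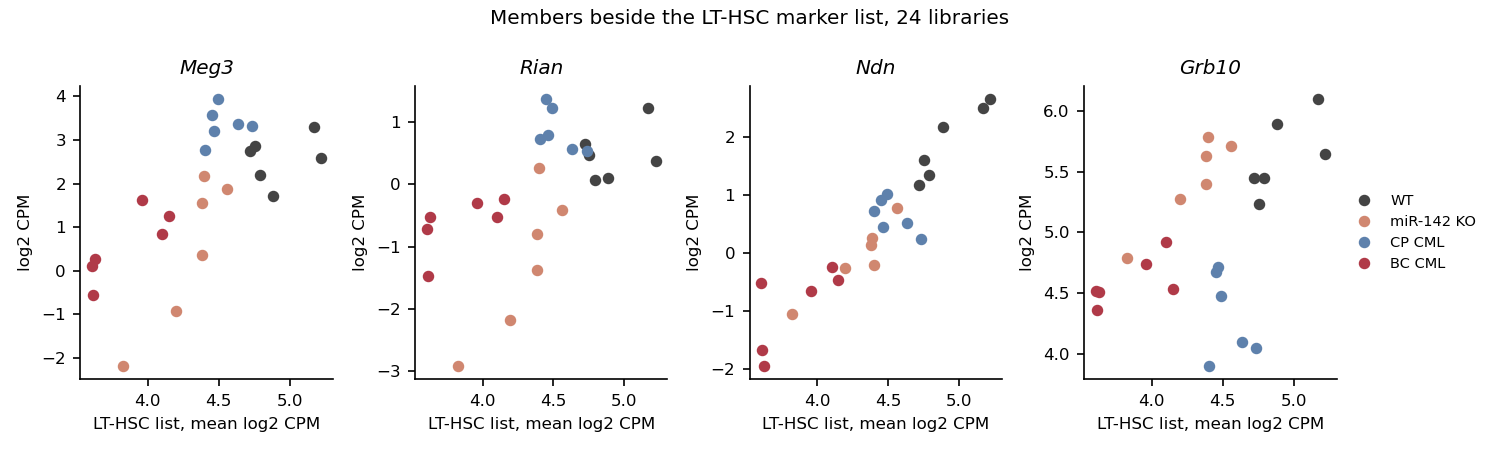
Log2 CPM of each tested member (y axis, scale differs between panels) and the mean log2 CPM of the 16 LT-HSC list genes (x axis) in each of the 24 libraries, coloured by group. Ndn runs along the LT-HSC list across all 4 groups, Meg3 and Rian of CP CML libraries lie in or above the range of most WT libraries at mostly lower LT-HSC means, and Grb10 of CP CML libraries stands below that of miR-142 KO libraries at similar means.

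Among 11760 tested genes with a name and at least 1 CPM on average, those whose log2 CPM was most like each member over the 24 libraries were Sult1a1 (r = 0.89) and Card6 (0.88) for Meg3, Wfdc17 (0.86) and Slc26a11 (0.85) for Rian, Tmem246 (0.96) and Bdh2 (0.95) for Ndn, and Khdrbs3 (0.92) and Stx2 (0.91) for Grb10. After group means were subtracted, r was 0.65 and 0.67 for the partners of Meg3, 0.78 and 0.49 for those of Rian, 0.83 and 0.80 for those of Ndn, and 0.70 and 0.74 for those of Grb10. Sult1a1, a sulfotransferase, is also on the LT-HSC list, although unlike most of that list it was higher in CP CML than in WT LSKs.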

How the data were processed

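Bulk RNA-seq of sorted LSKs was measured in 24 libraries, 6 in each of 4 groups assigned from the genotype labels. The authors deposited raw counts of reads, 1 row per gene. Per the labels, the submitters' processing notes name Trimmomatic, STAR 2.6.0, HTSeq 0.11.1, edgeR and the mm10 build. Libraries were prepared with a Kapa mRNA HyperPrep kit. The annotation and the strand setting of the counting are not given in the sources used here. Every column was matched to a sample by its description.

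Of 24091 genes, 13520 passed filterByExpr and were tested in edgeR 4.0.16 (R 4.3.3) with TMM normalization, quasi-likelihood tests on all 24 libraries in 1 fit with 1 mean per group (sex tested with group as a covariate), and Benjamini-Hochberg adjustment over all tested genes, and an adjusted p under 0.05 was called. The common dispersion was 0.02838. The 95% intervals of fold changes are from the SE and the normal quantile. Members under the filter were tested by exact two-sided permutation of log2 CPM and by an edgeR fit of all genes with a count. Levels are CPM, counts scaled to a library total of 1000000, divided by the deposited gene length where genes are compared, and log2 CPM used a prior count of 2. Total counts were 16267965 to 24687077 per library. The fit was tested on simulated data.

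The members and gene lists were chosen with earlier results of these data known. All 9 members were described across the 4 groups, and the interaction and the difference between sexes for the 4 tested members only. Of the other lists of imprinted and related genes, up to 4 called genes by smallest p and those at 0 were named. Of the cell type lists described, the counts called, the range of the summed level or a few genes were given. The lymphoid-primed progenitor, mature neutrophil, erythroid, megakaryocyte, T or NK cell and endothelial lists were not described. For each tested member the 2 genes with the highest r were given. Alternatives were the edgeR likelihood ratio test, DESeq2 1.42.0, RLE and upper quartile normalization, other filters, sex as a covariate, fits of the compared libraries only and leaving out libraries. Figures were drawn with matplotlib 3.10.9.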

Additional observations from a re-analysis of the deposited data

Results flagged for a closer look

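Among the 36 sets of 6 libraries formed by the 9 members and 4 groups, 3 held a library whose gap to the nearest other, as a share of the whole range, was above Dixon's 95% critical value, and chance gives this in about 1 in 20 sets. Rian was highest in WT replicate 1, at 2.39 CPM (55 counts, against 36 in the next library). Mirg was highest in miR-142 KO replicate 5, at 0.124 CPM (3 counts, against 0 in the other libraries of the group), and in CP CML replicate 1, at 0.123 CPM (2 counts, against 1 in the next). Both Mirg values are at or under 3 counts.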

How the results depend on the processing

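Meg3, Rian and Ndn were called lower in BC CML versus CP CML LSKs in all 24 fits that left out 1 library, as they were in miR-142 KO versus WT LSKs. The number of members called of 4 in BC CML versus miR-142 KO LSKs, 2, was 1 with only the 12 libraries compared and 1 to 2 when 1 library was left out. The count of genes differing between females and males was 88, against 233 with the edgeR likelihood ratio test, 372 with DESeq2, 13 in the 12 non-CML libraries and 50 to 250 when 1 library was left out. The interaction called 539 genes, against 891 with DESeq2. The direction turned for differences that passed no test: in BC CML versus miR-142 KO LSKs for Rian (-0.16 without the 2 miR-142 KO libraries lowest in Meg3, chosen after seeing the data) and Meg3 (0.12 as a mean difference of log2 CPM in the exact permutation test), and in CP CML versus WT LSKs for Mest (-0.050 without the filter). Leaving out 1 library moved 8 further values across 0: Meg3 between females and males (-0.053 to 0.26), Rian in the interaction (-0.30 to 0.43), H19 in BC CML versus CP CML (-0.10 to 0.34) and versus miR-142 KO (-0.45 to 0.065), Mirg in BC CML versus miR-142 KO (-0.10 to 0.20) and CP CML versus WT (-0.22 to 0.082), and Mest in CP CML versus WT (-0.10 to 0.26) and miR-142 KO versus WT (-0.10 to 0.32). Upper quartile normalization moved the share of higher calls from 53.7% to 42.4% in BC CML versus CP CML and from 54.7% to 42.0% in miR-142 KO versus WT LSKs. The cause was not tested. No paired analysis was possible because the labels give the groups no shared replicate numbers, and the replicate numbers used here follow accession order. Depth limits H19, Mirg, Peg3, Plagl1 and Mest, which rest on few counts per library.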
